A study of Mus musculus with 6 samples.

Results

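Proteasome subunit genes and the ubiquitin gene Ubb were examined in lenses of 3-month-old mice. The set holds 36 genes taken by name: 14 subunits of the 20S core, 17 of the 19S regulator, 4 activators and Ubb. They were 36 of the 12782 genes tested. The rule names genes and has no measured threshold, but it was written with earlier results of these data known. Members were found through the RefSeq accession that the files give for each probe, and 45 of the 39429 probes belong to them. Immunoproteasome subunits were kept out of the set and are described as a list of their own.

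The study compared 3 arrays of lens RNA from βB2-crystallin W151C knock-in mice (replicates 1, 2 and 4) with 3 arrays from wild type mice (replicates 1, 2 and 3). In the knock-in, CRISPR/Cas9 changed codon 151 of the βB2-crystallin gene so that tryptophan became cysteine; no other allele or treatment is named for either group. The sources used here give neither strain nor zygosity, nor how many animals or lenses lie behind an array. The design text calls the arrays biological replicates, and the p-values measure the spread between these 6 arrays. Each Agilent array carried the Cy3-labelled RNA of 1 sample in a single colour.

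The proteasome degrades proteins that carry chains of ubiquitin. Its 20S core is a barrel in which outer alpha rings form the gate and inner beta rings hold the proteolytic sites; the 19S regulator binds ubiquitin chains, removes them and threads the substrate through its ATPase ring into the core. In the lens, the ubiquitin-proteasome system is active in the epithelium and in differentiating fibre cells, whereas mature fibres lose their nuclei and organelles and keep their crystallins for life.

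Values are log2 processed signal over the array's own 75th percentile, so 0 marks the 75th percentile of that array. Before scaling, that percentile was a signal of 698 for wild type array 3, but 120 to 142 for the other wild type and 167 to 201 for the knock-in arrays. The 3 knock-in arrays shared a scan time, wild type arrays 1 and 2 shared another on the same day, and wild type array 3 was scanned on another day, so scan and genotype cannot be told apart. Marker lists are given as the log2 of their summed levels on each array.

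All 10 lens fibre markers were above background on all arrays, and all 10 were lower in the knock-in, with a median difference of -0.91. Of these, 5 passed the threshold of an adjusted p below 0.05 in limma over all genes (50%, beside 25.9% of all genes). Among them were Lim2 at -2.35, Lgsn at -2.71 and Birc7 at -5.24. The sums were 10.34 to 10.45 on knock-in and 10.17 to 12.02 on wild type arrays. Of 8 epithelium markers, 6 above background on all arrays, 5 were lower, with a median of -0.41. Foxe3 passed lower (-1.11) and Pdpn higher (1.56); the sums, 5.89 to 6.02 against 5.17 to 5.34, have Pdpn as their largest term. Of 14 leukocyte markers on the array, 6 were above background on all arrays and Lyz2 and Laptm5 on none. Of the 10 tested, 5 were higher and 5 lower in the knock-in, and 4 passed (40%, beside 25.9% of all genes). Tyrobp, C1qc and Cd52 passed as higher. They were above background on all knock-in arrays and on 0, 1 and 0 wild type arrays. They entered the test through the knock-in group alone, so their calls rest on wild type values near background. Itgam passed as lower (-1.65). The leukocyte sums, 3.38 to 4.34 against 3.73 to 5.40, have Itgam as their largest term. Retina markers, 1 of 6 above background on all arrays, summed to 0.75, 1.44 and 5.97 on knock-in arrays 1, 2 and 4 and to between -1.36 and -0.999 across the wild type group; knock-in array 4 stood apart. Pigment markers (2 of 5) gave 0.15 to 0.70 and -0.93 to 0.39, and blood and vessel markers (3 of 5, Alas2 and Cdh5 on none) gave 0.53 to 0.84 and 0.56 to 1.61. Their part in the results was not tested, and on whole lens RNA fewer cells of a type and less RNA per cell cannot be told apart.

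All 36 members were well above background on all 6 arrays. Between knock-in and wild type lenses, 6 of the 36 passed the threshold (adjusted p below 0.05, limma over all genes), 4 higher and 2 lower. That is 16.7% of the members; over all genes tested 25.9% passed, 13.3% higher and 12.6% lower. The higher genes were the alpha ring subunits Psma1, Psma3 and Psma5 and the lid subunit Psmd11; the lower genes were the lid subunit Psmd3 and the ATPase Psmc5. The log2 differences ran from -0.91 to 1.1, with standard errors of 0.14 to 0.31. The median difference over the members was 0.0017, beside -0.035 over all genes tested.

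**Figure D1:**
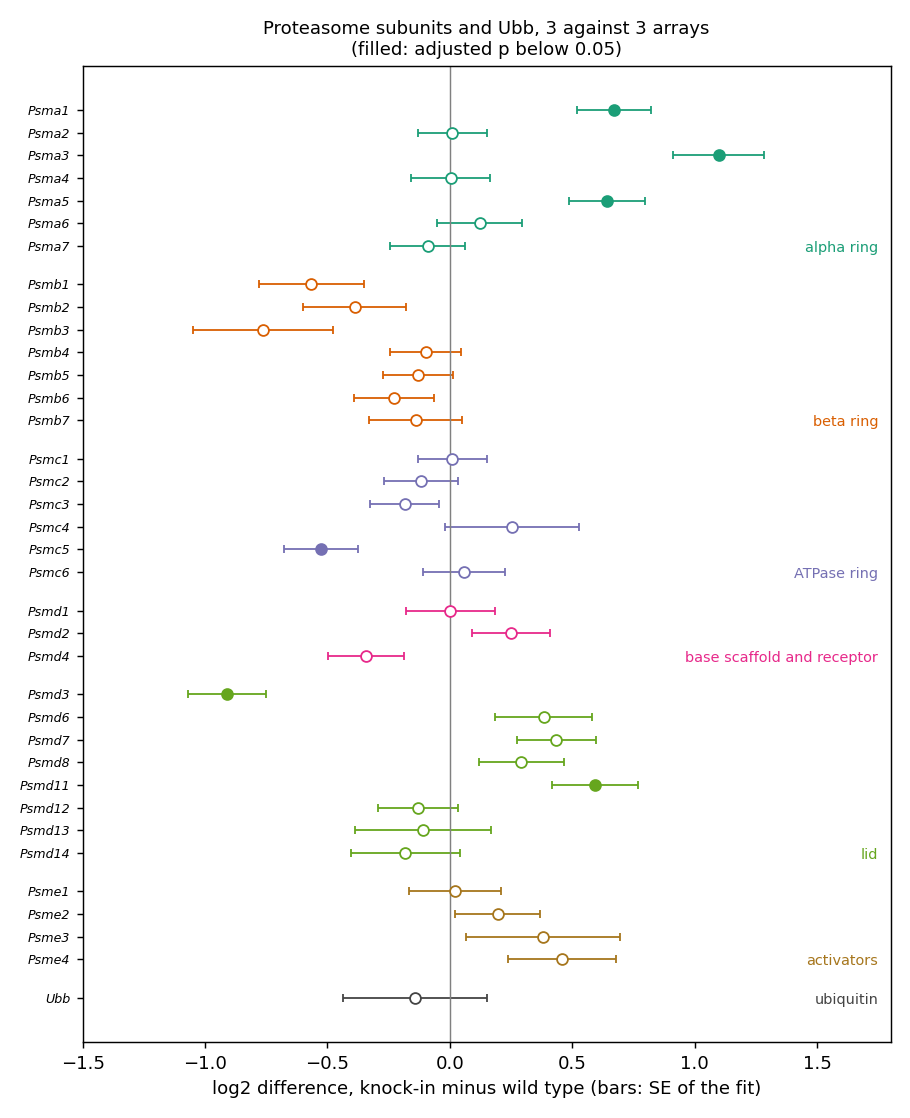
Log2 difference, knock-in minus wild type, for each of the 36 members (y axis), grouped by place in the complex, from 3 against 3 arrays; bars are the standard errors of the fit and filled points passed adjusted p below 0.05. Psma3 at 1.1 and Psmd3 at -0.91 lie at the ends of the range.

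Arrays also differed within the groups. Knock-in array 4 was the lowest of its group for 27 of 36 members (75% of members, 38.7% of all genes), and knock-in array 1 was the highest for 22 (61.1%, against 38.4% of all genes). Wild type array 3 was the highest wild type array for 24 members (66.7%, against 51.6% of all genes). Leaving out knock-in array 4 left 4 of the members called (Psma1, Psma3, Psma5 and Psmd3, with 18.6% of all genes). Leaving out wild type array 3 gave 11 called members, with 43.3% of all genes.

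The alpha ring was the group with most calls (42.9% of its genes, beside 25.9% of all genes tested). Its 7 genes encode the outer ring of the core, through which substrates enter and on which regulators dock; 3 rose in the knock-in lenses and 4 did not pass the test. Psma3 measured 5.89, 5.69 and 5.36 on the knock-in arrays and 4.60, 4.63 and 4.42 on the wild type arrays. Every knock-in array lay above every wild type array, and the difference of 1.1 ± 0.19 (SE, 3 against 3 arrays) was 2.14-fold (adjusted p = 0.00713 by limma).

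Psma1 measured 3.74, 3.82 and 3.55 in knock-in and 3.05, 3.05 and 3.00 in wild type lenses. The groups did not overlap, and Psma1 was 0.67 ± 0.15 higher, or 1.59-fold (limma adjusted p = 0.0186). Psma5 measured 4.55, 4.45 and 4.24 in knock-in and 3.76, 3.85 and 3.71 in wild type lenses. Its groups did not overlap either, with a difference of 0.64 ± 0.16, or 1.56-fold (limma adjusted p = 0.0247). Each of these genes rests on 1 probe. Psma1 lost its call without knock-in array 2 (adjusted p = 0.0995), wild type array 1 (0.0855) or wild type array 2 (0.073), in limma. Psma5 lost it without knock-in array 1 (0.0546) or 2 (0.109) or wild type array 1 (0.107) or 2 (0.0763).

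The other alpha genes had values that overlapped between the groups. The differences were 0.01 for Psma2 (95% interval -0.32 to 0.34), 0.0026 for Psma4 (-0.38 to 0.38), 0.12 for Psma6 (-0.29 to 0.53) and -0.09 for Psma7 (-0.46 to 0.27). A second probe of Psma4 gave 0.16. Within one ring, the members thus ranged from -0.09 to 1.1 on the log2 scale.

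**Figure D2:**
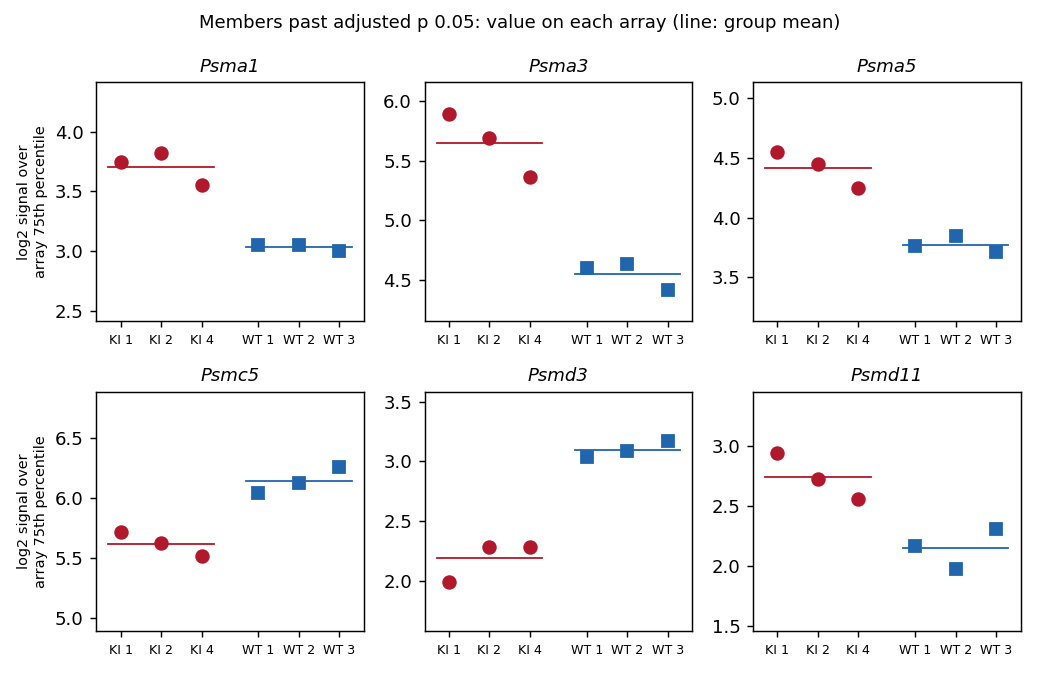
Log2 signal over the array's 75th percentile (y axis) for each of the 6 called members on each knock-in (KI) and wild type (WT) array; horizontal lines are group means and each panel spans the same range of log2 units. The 3 knock-in arrays lie on 1 side of the 3 wild type arrays in every panel.

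The sequence before the start sites of alpha ring genes is shown because 3 of them moved together while others did not. Each line holds the 140 bases before the start site of the gene, 5′ to 3′ in the direction of the gene, from RefSeq on GRCm38.p6; capitals mark CCAAT or its reverse complement ATTGG, the letters of the box that NF-Y binds.
Psma1, chr7:114276117-114276256, minus strand: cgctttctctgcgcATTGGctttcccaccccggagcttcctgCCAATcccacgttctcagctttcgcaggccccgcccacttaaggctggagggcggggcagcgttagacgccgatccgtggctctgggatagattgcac
Psma3, chr12:70974483-70974622, plus strand: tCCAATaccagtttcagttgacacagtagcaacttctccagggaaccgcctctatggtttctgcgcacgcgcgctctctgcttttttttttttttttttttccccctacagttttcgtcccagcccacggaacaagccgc
Psma5, chr3:108256786-108256925, plus strand: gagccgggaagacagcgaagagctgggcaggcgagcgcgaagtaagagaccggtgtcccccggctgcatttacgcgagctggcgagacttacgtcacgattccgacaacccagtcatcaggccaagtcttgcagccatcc
Psma2, chr13:14613102-14613241, plus strand: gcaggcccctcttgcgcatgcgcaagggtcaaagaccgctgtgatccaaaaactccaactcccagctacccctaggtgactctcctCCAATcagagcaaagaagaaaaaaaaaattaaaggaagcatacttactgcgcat
The Psma1 stretch holds 2 matches, at -126 and -98 from the start site, and that of Psma3 holds 1, at -139. Psma5, whose RNA was also higher, has none in this stretch, and Psma2, whose difference was 0.01, has 1 at -54. The genes shown were picked after their differences were seen. In windows of 300 bases, CCAAT was found in 5 of 8 alpha ring windows (62.5%), beside 37.4% of all windows. These 5 were those of Psma1, Psma2, Psma3, Psma6 and Psma7. Any part of NF-Y was not tested.

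The beta ring, which holds the proteolytic sites, had no call among its 7 genes, beside 25.9% of all genes tested. All 7 differences were below 0, from -0.76 to -0.10, with a median of -0.23; quantile normalization turned Psmb4 (0.072), Psmb5 (0.13) and Psmb6 (0.13) above 0. The catalytic subunits Psmb5, Psmb6 and Psmb7 had overlapping groups. Psmb5, the chymotrypsin-like subunit, measured 4.82, 4.90 and 4.76 in knock-in and 4.93, 5.04 and 4.89 in wild type lenses. The difference was -0.13 with a 95% interval of -0.47 to 0.21 (limma adjusted p = 0.544), and a second probe went the other way, at 0.32.

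Psmb6, the caspase-like subunit, measured 5.77, 5.66 and 5.51 in knock-in and 5.77, 5.80 and 6.06 in wild type lenses. The lowest wild type array and the highest knock-in array were nearly level, and the difference was -0.23 (95% interval -0.62 to 0.16; limma adjusted p = 0.337). Psmb7, the trypsin-like subunit, measured 0.53, 0.80 and 0.30 in knock-in and 0.62, 0.56 and 0.88 in wild type lenses. Its groups overlapped, with a difference of -0.14 (95% interval -0.59 to 0.31; limma adjusted p = 0.626). For each of these subunits the interval leaves room for a change in either direction.

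Among the structural beta subunits, Psmb1 and Psmb3 had every knock-in array below every wild type array. Psmb3 measured 3.76, 3.68 and 3.28 in knock-in and 4.47, 4.78 and 3.77 in wild type lenses, a difference of -0.76 ± 0.29 (limma adjusted p = 0.0929). With the scan day as a block, which compares arrays of the shared day, it was -1.05 (adjusted p = 0.00781). Psmb1 differed by -0.57 ± 0.21 (0.095), Psmb2 by -0.39 ± 0.21 (0.216) and Psmb4 by -0.10 ± 0.15 (0.654). Psmb2 passed with the scan day as a block, at -0.59 (0.0166).

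Sequences before 2 of the catalytic genes are shown because they carry the letters TGACNNNGC of the antioxidant response element, bound by NFE2L1, which drives proteasome genes when proteolysis is impaired, and by its relative NFE2L2. The lines hold 140 bases before the start site as above, with the match in capitals.
Psmb5, chr14:54617996-54618135, minus strand: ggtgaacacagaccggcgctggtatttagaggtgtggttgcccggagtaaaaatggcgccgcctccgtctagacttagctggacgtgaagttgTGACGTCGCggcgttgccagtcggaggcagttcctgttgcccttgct
Psmb6, chr11:70525217-70525356, plus strand: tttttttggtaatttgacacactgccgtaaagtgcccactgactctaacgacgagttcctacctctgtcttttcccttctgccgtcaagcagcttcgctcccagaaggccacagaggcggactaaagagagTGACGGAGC
The match begins at -47 in Psmb5 and at -9 in Psmb6. The RNA of neither gene passed the test. Of the 4 beta ring windows, 2 held this match, those shown here, beside 12.4% of all windows. The 5 called members with a promoter window held none, but 5 windows are too few to be set against that share. Any part of NFE2L1 or NFE2L2 was not tested.

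Set side by side, the mean values of the alpha and beta rings lay on opposite sides of wild type. Relative to the wild type mean, the mean over the alpha genes was 0.45, 0.39 and 0.21 on the knock-in arrays, and over the beta genes -0.22, -0.28 and -0.49. Alpha minus beta was 0.67, 0.67 and 0.70 on the knock-in arrays and -0.02, -0.07 and 0.09 on the wild type arrays. All 3 knock-in arrays lay above all 3 wild type arrays, with a difference of 0.68 (SD 0.019 and 0.083, n = 3 each), or 0.73 against the wild type arrays of the shared scan day. Without the 3 called alpha genes, alpha minus beta was 0.30, 0.31 and 0.42 against -0.06, -0.12 and 0.18. All 7 beta genes stayed in, with differences from -0.76 to -0.10, so this is no independent support. The alpha minus beta contrast was chosen after its values were seen and carries no test.

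**Figure D3:**
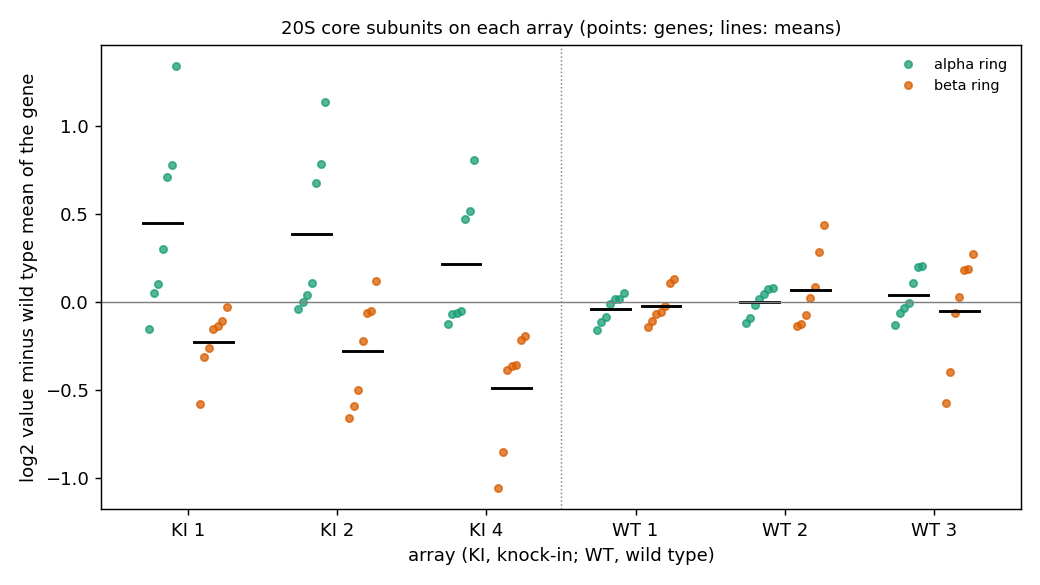
Log2 value minus the gene's wild type mean (y axis) for the 7 alpha and 7 beta ring genes on each array (x axis); points are genes and lines are means. On the knock-in arrays the alpha means are 0.45, 0.39 and 0.21 and the beta means -0.22, -0.28 and -0.49.

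The core as a whole did not separate from the regulator. Core minus regulator was 0.035, 0.063 and -0.028 on the knock-in arrays and 0.044, 0.121 and -0.165 on the wild type arrays. The groups overlapped, and the difference of 0.023 lay within the spread of the arrays (SD 0.047 and 0.15, n = 3 each). Within the shared scan day it was -0.059. The core had 3 of 14 genes called (21.4%), all higher, and a median difference of -0.09. The regulator had 3 of 17 called (17.6%), 1 higher and 2 lower, and a median of 0.00089. Both shares were below the 25.9% called over all genes tested.

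**Figure D4:**
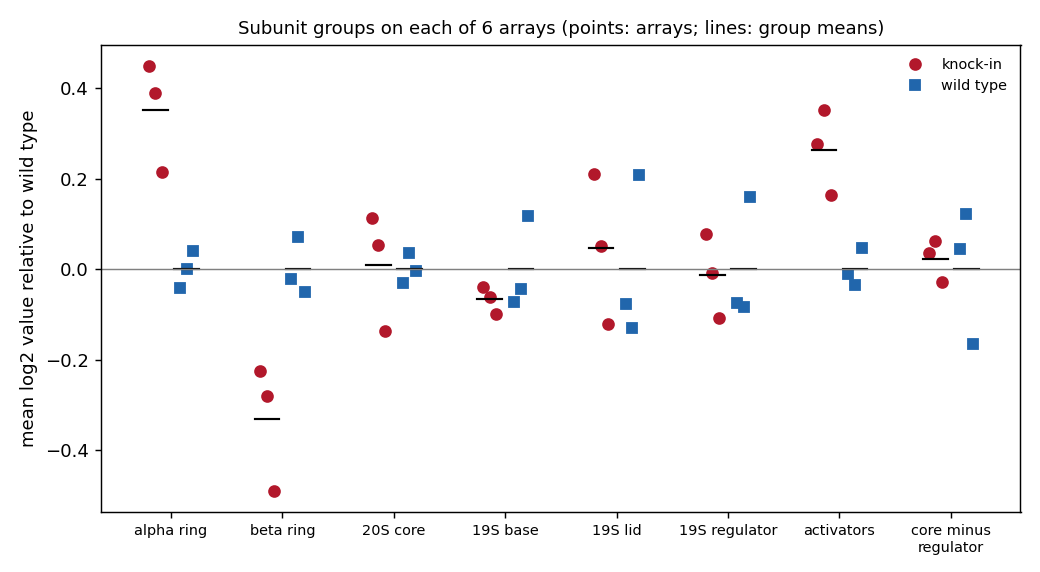
Mean log2 value of each subunit group relative to the wild type mean (y axis) on the knock-in and wild type arrays; points are arrays and lines are group means. The alpha ring lies above wild type (mean 0.35) and the beta ring below (-0.33), while core minus regulator overlaps between the groups (0.023).

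The base of the regulator comprises the ATPase ring, which unfolds substrates, and the subunits Psmd1, Psmd2 and Psmd4. Of its 9 genes, 1 fell (11.1% called, beside 25.9% of all genes). The ATPase Psmc5 measured 5.71, 5.63 and 5.52 in knock-in and 6.05, 6.12 and 6.26 in wild type lenses. The groups did not overlap, and Psmc5 fell by 0.53 ± 0.15 on the log2 scale, or 1.44-fold (limma adjusted p = 0.0428). Its call was lost without any 1 of the arrays other than wild type array 3; quantile normalization gave -0.17 (adjusted p = 0.469) and the normexp background -0.19 (0.623).

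The other ATPase genes showed differences of 0.0095 for Psmc1, -0.12 for Psmc2, -0.19 for Psmc3, 0.25 for Psmc4 and 0.06 for Psmc6. Psmc3 was lower on every knock-in array by its chosen probe, while its second probe gave 0.21. Psmc4 varied within the groups, from 1.99 to 2.84 in knock-in and from 1.91 to 2.54 in wild type lenses. The scaffold Psmd1 differed by 0.00089 and the scaffold Psmd2 by 0.25. Psmd4, a ubiquitin receptor, measured 5.01 to 5.09 in knock-in and 5.25 to 5.57 in wild type lenses, a difference of -0.34 ± 0.16 (limma adjusted p = 0.148).

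The lid, which supports the removal of ubiquitin chains, had 2 of 8 genes called (25%, beside 25.9% of all genes), in opposite directions. Psmd3, a structural subunit of the lid, measured 1.99, 2.29 and 2.28 in knock-in and 3.04, 3.08 and 3.17 in wild type lenses. The groups lay well apart, and Psmd3 fell by 0.91 ± 0.16 on the log2 scale, or 1.88-fold (limma adjusted p = 0.00755). Psmd11, whose product bridges lid, base and core, measured 2.94, 2.72 and 2.56 in knock-in and 2.17, 1.97 and 2.31 in wild type lenses. The groups did not overlap, and Psmd11 was 0.59 ± 0.18 higher, or 1.51-fold (limma adjusted p = 0.0468). Psmd11 lost its call without any 1 of the arrays other than wild type array 3; its adjusted p without each of those ran from 0.0606 to 0.171, and the normexp background gave 0.39 (0.28).

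Psmd6 and Psmd7 were higher on every knock-in array but missed the threshold, with differences of 0.38 ± 0.20 (limma adjusted p = 0.198) and 0.43 ± 0.16 (0.0897). Psmd7 is the partner of Psmd14, the deubiquitinase of the lid. Psmd14 itself measured 0.96, 0.81 and 0.62 in knock-in and 0.79, 0.75 and 1.40 in wild type lenses, a difference of -0.18 ± 0.22 with overlapping groups. Psmd8 differed by 0.29, Psmd12 by -0.13 (-0.56 by its second probe) and Psmd13 by -0.11. In Psmd13 and Psmd14 the highest of all 6 values came from wild type array 3, and without it both differences were above 0, at 0.16 and 0.028.

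None of the 4 activators passed the test, beside 25.9% of all genes. Activators cap the core in place of the regulator: Psme1 and Psme2 form the interferon-induced ring, Psme3 a nuclear ring, and Psme4 a large single-chain cap. Psme1 measured 2.59, 2.43 and 2.12 in knock-in and 2.23, 2.29 and 2.55 in wild type lenses, with a difference of 0.02 (95% interval -0.42 to 0.46). Psme2 measured 4.17, 4.21 and 3.89 against 3.85, 3.75 and 4.08, a difference of 0.20 (-0.21 to 0.60). Its second probe gave 0.46, and the mean of its probes 0.33 (limma adjusted p = 0.25). In both genes wild type array 3 lay among the knock-in values. Psme3 measured 0.86, 1.62 and 1.53 against 1.16, 1.33 and 0.39, a difference of 0.38 (-0.36 to 1.12). Psme4 measured -0.18, -0.53 and -0.56 against -0.95, -1.18 and -0.51, a difference of 0.46 (-0.06 to 0.98; limma adjusted p = 0.17). Psme4 overlapped only through wild type array 3 and passed with the scan day as a block, at 0.64 (adjusted p = 0.027). A second probe of Psme4, above background on 5 arrays, gave 0.06. The mean of its probes gave 0.26 (limma adjusted p = 0.235).

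Ubb, a gene of head-to-tail ubiquitin repeats, measured 8.11, 8.12 and 8.07 in knock-in and 8.55, 8.63 and 7.55 in wild type lenses. The knock-in arrays agreed closely (SD 0.029), whereas wild type array 3 fell below them and the other wild type arrays above them (SD 0.60). The difference was -0.14 ± 0.29 (95% interval -0.84 to 0.55; limma adjusted p = 0.755). A second probe gave -0.15, again with wild type array 3 below and the other wild type arrays above all knock-in arrays. Ubb was -0.49 with the scan day as a block (adjusted p = 0.0209), -0.03 with scan as a random block (0.974) and 0.29 after quantile normalization (0.198). Its unscaled signals ran from 46215 to 131129, below saturation on all arrays. Wild type array 3 had a 75th percentile of 698, against 142 and 120 on wild type arrays 1 and 2. The highest signal on wild type array 3 was 190397, against 141459 and 143058. Whether high signals were compressed on that array was not tested.

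Rps27a, a fusion of ubiquitin with a ribosomal protein, had its lowest wild type value on wild type array 3 as well. It measured 7.52, 7.39 and 7.32 in knock-in and 7.84, 8.04 and 7.17 in wild type lenses, a difference of -0.27 (limma adjusted p = 0.444). Wild type arrays 1 and 2 lay above all knock-in arrays, and Rps27a passed with the scan day as a block, at -0.53 (0.0245). Ubiquitin genes share repeats of near-identical sequence, so signal may be divided between their probes and the values of Ubb and Rps27a are uncertain.

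The calls depended on how scan was treated. With scan as a random block no member passed, against 4.86% of all genes; Psma3 kept a difference of 1.12 (adjusted p = 0.11) and Psmd3 of -0.92 (0.115). With the scan day as a block 11 members passed, against 43.5% of all genes: the 6 above, with Psmd7 and Psme4 higher and Psmb2, Psmb3 and Ubb lower. Psma3 and Psmd3 passed in 17 of 18 alternative settings, Psma1 in 12, Psma5 in 10, Psmd11 in 9 and Psmc5 in 6. These settings were not independent of each other. The shared scan day alone and leaving out wild type array 3 used the same arrays, and the scan day as a block gave the same differences. Keeping flagged spots, the mean of probes and a filter on all arrays left the differences of these 6 genes unchanged. All 6 passes of Psmc5 came from these settings.

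**Figure D5:**
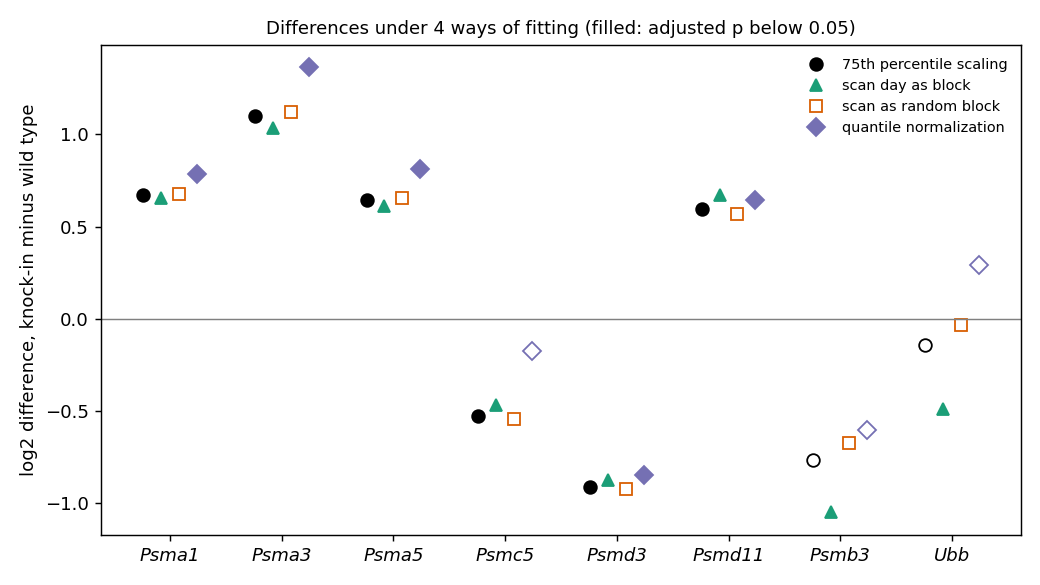
Log2 difference, knock-in minus wild type (y axis), for the 6 called members, Psmb3 and Ubb under 4 ways of fitting; filled points passed adjusted p below 0.05. Psma3 lies between 1.03 and 1.37 and Psmd3 between -0.92 and -0.85, while Ubb lies at -0.14, -0.49, -0.03 and 0.29.

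Counted by separation of the arrays, 13 of 36 members had all knock-in arrays on 1 side of all wild type arrays, or 36.1%, beside 45.9% of all genes. Of these, 7 were higher (22.7% of all genes were) and 6 lower (23.1% of all genes were). The higher members were Psma1, Psma3, Psma5, Psmd2, Psmd6, Psmd7 and Psmd11. The lower members were Psmb1, Psmb3, Psmc3, Psmc5, Psmd3 and Psmd4. These shares of the members, 19.4% higher and 16.7% lower, were below those of all genes.

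Other genes of the pathway were read from lists written by role: 91 genes, of which 85 were measured. Of the 85, 14 passed (16.5%), 6 higher and 8 lower, beside 25.9% of all genes. Among the interferon-induced subunits that replace catalytic ones, Psmb9 measured -2.28, -2.82 and -2.99 in knock-in and -3.59, -3.29 and -3.51 in wild type lenses. It was 0.76 ± 0.22 higher (limma adjusted p = 0.0443), a call lost when any array but knock-in array 4 was left out and with the normexp background (0.36; 0.571). Psmb10 differed by 0.06 (0.863), and Psmb8 was above background on 1 knock-in array and no wild type array and was not tested.

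Of 8 measured assembly chaperones, 1 rose (12.5% called, beside 25.9% of all genes). It was Psmd5, which binds the ATPase ring during assembly, higher by 0.58 (limma adjusted p = 0.0493). Without each of the arrays other than wild type array 3, its limma adjusted p ran from 0.0572 to 0.171. Pomp, which guides assembly of the beta ring, was higher on every knock-in array, at 0.32 ± 0.15, but did not pass. Of 16 receptors, shuttles and associated enzymes, 1 rose and 1 fell (12.5% called, beside 25.9% of all genes). Usp14, a deubiquitinase that sits on the regulator, was higher by 0.85 (limma adjusted p = 0.0124), but the mean of its probes gave 0.38 (0.16). Its call was also lost without knock-in array 2 (0.0684), wild type array 1 (0.0627) or wild type array 2 (0.0508). Adrm1, a ubiquitin receptor of the regulator, fell by 0.52 (0.048; 0.059 to 0.192 without each of the arrays other than wild type array 3).

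None of the 4 measured transcriptional regulators passed, beside 25.9% of all genes. Nfe2l2 was higher on every knock-in array, at 1.88, 1.94 and 1.91 against 1.37, 1.37 and 1.62, but missed the threshold (0.45; limma adjusted p = 0.0668). Nfe2l1 differed by -0.13 (0.826) and was above background on 2 of 3 knock-in arrays. Of 8 genes of the p97 segregase, which extracts ubiquitinated proteins, 1 passed (12.5%, beside 25.9% of all genes). This gene, the cofactor Faf2, rose by 0.68 (limma adjusted p = 0.0189), a call lost with the mean of its probes (0.24, adjusted p = 0.26). Without knock-in array 2, wild type array 1 or wild type array 2, its adjusted p was 0.099, 0.0725 and 0.0681. Vcp, the segregase itself, was -0.47 and did not pass.

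Of 25 activating (E1) and conjugating (E2) enzymes, 1 rose and 5 fell (24% called, beside 25.9% of all genes). Ube2s, which extends chains for the anaphase-promoting complex, measured 1.96, 2.06 and 2.06 in knock-in and 3.78, 3.66 and 3.58 in wild type lenses. It fell by 1.65 ± 0.15 on the log2 scale (limma adjusted p = 0.000586), and the groups lay far apart. Ube2g2, an enzyme of degradation at the endoplasmic reticulum, fell by 1.98 (0.00771), with 2.55, 2.28 and 1.47 against 4.25, 4.43 and 3.54. Ube2n, which builds chains together with Ube2v1 or Ube2v2, fell by 1.35 (0.0052), whereas Ube2v2 was 0.80 higher (0.0128). The probes of Ube2v2 disagreed: their mean gave 0.18 (0.396). Without knock-in array 1 another probe had the highest mean and gave 0.083 (0.741), while the first probe gave 0.74 on the same arrays. With the mean of probes the differences of Ube2g2 and Ube2n were smaller too, at -0.96 (0.0101) and -0.63 (0.0393).

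Of 21 deubiquitinases, 1 rose and 2 fell (14.3% called, beside 25.9% of all genes). Usp18, an interferon-induced protease that removes ISG15, measured -0.99, -0.87 and -0.93 in knock-in and -2.50, -2.45 and -2.26 in wild type lenses. It rose by 1.47 (limma adjusted p = 0.000926) with no overlap of the groups, or by 0.74 (0.046) with the normexp background. Otulin, which cleaves linear ubiquitin chains, fell by 0.82 (0.0115; 0.0577 without knock-in array 2). Bap1, a nuclear deubiquitinase, fell by 0.80 (0.0402), a call lost without knock-in array 1 (0.089), 2 (0.14) or 4 (0.0915) or wild type array 2 (0.118), and with the normexp background (-0.42; 0.24). With scan as a random block, Ube2s and Usp18 were the 2 genes of these lists that still passed.

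Promoter windows from 250 bases before to 50 after a start site were at hand for 30 of the 36 members, 34 windows in all, beside 32841 windows of all genes (RefSeq, GRCm38.p6). Each motif was searched on both strands. TGACNNNGC was found in 6 of 34 member windows (17.6%; 12.4% of all windows), those of Psmb5, Psmb6, Psmc6, Psmd12, Psme4 and Ubb. CCAAT was found in 12 (35.3%; 37.4% of all windows), including those of 5 of the 7 alpha ring genes. The interferon-stimulated site was found in 3 (8.82%; 3.44%), those of Psmb3, Psmd4 and Psme1. The gamma-activated letters TTCNNNGAA were found in 2 (5.88%; 8.3%), of Psmd2 and Ubb, and the heat shock letters TTCNNGAA in 2 (5.88%; 8.52%), of Psmd4 and Psme3. Matches of different motifs did not overlap in a member window. A match describes the letters in the window and no binding was measured.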

How the data were processed

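Lens RNA of 3 knock-in and 3 wild type arrays was measured on single-colour Agilent arrays. The authors deposited each spot's scanner intensity; per the file headers the processed signal was background-subtracted within each array by Feature Extraction 11.0.1.1, while the submitters' processing notes name Agilent Feature Extraction 9.1. Whether the authors scaled arrays to each other is not stated there. Probe coordinates follow another build than the reference tables and are not used here.

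From the deposited intensity the log2 was taken and each array's 75th percentile over 43020 non-control spots subtracted. Outlier spots were dropped and a probe's remaining spots averaged. The filter required at least 50% of a probe's spots well above background on every array of 1 group or both; 21076 of 39429 probes passed. RefSeq accessions named 27234 probes (table of GRCm38.p6; 20659 symbols), and the probe with the highest mean stood for each of 12782 genes. Probes with every spot flagged on an array, 9 in number, were dropped. The lowest correlation between arrays of a group was 0.953, and 0 spots were saturated; the number of arrays limits the precision.

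The fit used limma 3.58.1 (R 4.3.3; knock-in minus wild type, no covariate, 4 residual degrees of freedom) and p-values adjusted by Benjamini-Hochberg over all genes tested, threshold 0.05. The procedure was tested on simulated data. An exact permutation test of 3 against 3 arrays cannot go below 0.1 and was not used. Lists are described by counts and medians.

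Members and lists were chosen with earlier results of these data known. Some pathway genes were taken out of the lists and are not reported here. Named genes were all members; array values are given for called members, catalytic subunits, activators and Ubb, and of each pathway list for up to 4 called genes of smallest p, the immunoproteasome genes and Rps27a; Psmb3, Psmd14, Nfe2l2, Pomp and Vcp were added after their values were seen. The 18 alternatives covered scaling, background, filter, probe choice, flags, scan day, scan, replicate number and leaving out each array.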

Additional observations from a re-analysis of the deposited data

How the results depend on the processing

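Of 648 comparisons of a member with its value under an alternative, 534 kept direction and side of the threshold, 37 lost a call, 22 gained one and 55 changed sign. Alternatives that repeat the same arrays or leave a value unchanged are counted among the 648. The count of called members, 6, was 2 with median centring (Psma3 and Psmd3; 21.9% of all genes, 8.94% higher and 12.9% lower), 2 without a filter (9.69% of 20656 genes), 11 with the scan day as a block or the shared day alone and 0 with scan as a random block. Leaving out 1 array gave 2 to 11: 3 without knock-in array 1, 4 without knock-in array 4, 2 without knock-in array 2, wild type array 1 or wild type array 2, and 11 without wild type array 3. Called pathway genes, 14, were 8 with median centring, 8 with normexp, 9 without a filter, 24 with the scan day as a block, 23 on the shared day, 2 with scan as a random block, and 4 to 23 with 1 array left out (9 without knock-in array 1, 4 without knock-in array 2, 7 without wild type array 1, 6 without wild type array 2 and 23 without wild type array 3). With quantile normalization the members' median moved to 0.135, while that of all genes was 0.0038. In that setting 27 members had differences above 0, against 19 in the main fit. With no filter the median of all genes was 0.208 and that of the members 0.0017. Core minus regulator moved by less than the spread of the arrays throughout. The cause of these changes was not tested.

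The block on replicate number gave 11 called members (42.6% of all genes) and 1 residual degree of freedom; nothing in the labels pairs the arrays, and the deviations of same-numbered arrays correlated at 0.168 and -0.216. Under this replicate block the sign changed for Psmb7 (0.079), Psmc1 (-0.035), Psmd12 (0.035), Psmd13 (0.29), Psmd14 (0.12) and Psme3 (-0.0003983).

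Other sign changes all concerned genes not called in either setting. They were, with quantile normalization, Psma7 (0.014), Psmb4 (0.072), Psmb5 (0.13), Psmb6 (0.13), Psmc2 (0.15), Psmc3 (0.16), Psmd12 (0.049), Ubb (0.29) and Rps27a (0.083); with median centring, Psma2 (-0.028), Psma4 (-0.036), Psmc1 (-0.029), Psmd1 (-0.038) and Psme1 (-0.016); and with normexp, Psma2 (-0.21), Psma4 (-0.20), Psmc6 (-0.064), Psmd14 (0.045), Psme1 (-0.019) and Psmb10 (-0.058). With scan as a random block they were Psma4 (-0.029), Psmd1 (-0.043), Psme1 (-0.0090) and Psmb10 (-0.0010), with the mean of probes Psmb5 (0.094) and Psmc3 (0.011), and, for either scan day setting, Psmc1 (-0.028), Psmd13 (0.16) and Psmd14 (0.028). Leaving out 1 array gave ranges across 0 for Psma2 (-0.011 to 0.048), Psma4 (-0.056 to 0.10), Psmc1 (-0.028 to 0.037), Psmc6 (-0.0077 to 0.18), Psmd1 (-0.076 to 0.14), Psmd13 (-0.27 to 0.16), Psmd14 (-0.30 to 0.028), Psme1 (-0.082 to 0.15), Ubb (-0.49 to 0.050) and Psmb10 (-0.074 to 0.26). Ubb was called without wild type array 3.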
